A study of Mus musculus with 6 samples.

Results

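The extracellular matrix and integrin genes were followed through the 354 accessible regions that the authors' table places near 74 of them, out of 70494 regions in all. A region was taken when the gene named beside it was a collagen chain, a laminin chain, an integrin subunit, or Fn1, Nid1, Nid2, Hspg2, Agrn, Sparc or Tnc. The regions are ATAC-seq peaks, stretches of open chromatin found by where a transposase can cut DNA. Collagen genes held 197 of them, laminin genes 55, integrin alpha genes 50, integrin beta genes 24 and the other glycoproteins 28.

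The cells were definitive endoderm grown from mouse epiblast stem cells (EpiSCs) of the line 7H OTX2-dTAG-EGFP, of BL6/129 hybrid strain, so both groups carried the same degradable OTX2 allele. Activin A at 40 ng/ml together with CHIR at 3 uM (an activator of WNT signalling) was given for 16 hours, followed by activin A at 100 ng/ml and LDN (a BMP receptor inhibitor) at 100 nM for 24 hours. From the primitive streak stage, 1 group received the vehicle DMSO and the other dTAG13, a small molecule that brings a tagged protein to the cell's degradation machinery, for 24 hours to remove OTX2. Live cells were sorted with DAPI and 50000 were used for each library. Each group had 3 libraries, which the series describes as technical replicates of a single line, so the p-values measure the spread between libraries and not between separate cultures. Untagged cells given dTAG13 were not analysed here.

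Matrix proteins give an epithelium the sheet it stands on. Laminin trimers and collagen IV form the basement membrane networks, nidogens, perlecan (Hspg2) and agrin tie them together, and fibrillar collagens and fibronectin form the looser matrix between cells. Integrins are pairs of an alpha and a beta subunit that bind these proteins at the cell surface. During gastrulation the basement membrane is breached at the primitive streak, and the new endoderm then settles on a matrix again. OTX2 is a homeodomain factor of anterior tissues that binds DNA letters of the kind GGATTA.

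Of 348 member peaks with an adjusted p, 21 differed at an adjusted p under 0.05 in the authors' deposited test (a Wald test adjusted by Benjamini-Hochberg over all peaks), which is 6.03% beside 5.26% of all tested peaks. Accessibility was lower after dTAG13 at 14 of the 21, near 12 genes, and higher at 7, near 6 genes. Among all tested peaks 3.79% were called lower and 1.47% higher. The split depends on the scaling: moving the median of all tested peaks, -0.16 on the log2 scale, to 0 gave 8 lower and 13 higher, and doing so within each of 10 bins of GC content gave 5 lower and 10 higher. Over all tested peaks the counts shifted the same way, from 2622 lower and 1016 higher to 2084 and 1787, and by GC content to 1434 and 2009. Centring instead on the peaks of both authors' lists gave 16 lower and 7 higher member peaks, and 3166 and 790 over all peaks. The shares of called member peaks lie near those of the whole table.

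Of the 14 regions that fell, 4 (28.6%) hold the OTX letters and 10 do not, beside 34.2% with the letters among all peaks called lower. Their sequences are shown because they are the called member peaks in which an OTX core stands. All sequences here are the plus strand of mm10, and capitals mark GGATTA or its reverse complement TAATCC.
Sparc, chr11:55375100-55375226: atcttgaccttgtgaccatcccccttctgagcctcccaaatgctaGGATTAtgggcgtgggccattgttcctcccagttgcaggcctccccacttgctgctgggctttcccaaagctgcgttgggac
Col2a1, chr15:98012515-98012701: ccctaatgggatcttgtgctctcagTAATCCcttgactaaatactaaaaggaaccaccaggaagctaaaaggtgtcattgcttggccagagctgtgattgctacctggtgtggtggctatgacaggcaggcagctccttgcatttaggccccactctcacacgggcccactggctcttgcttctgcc
Col8a2, chr4:126290041-126290162: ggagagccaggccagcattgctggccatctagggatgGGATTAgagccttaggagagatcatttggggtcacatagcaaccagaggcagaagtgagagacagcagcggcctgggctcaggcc
Col13a1, chr10:61891263-61891513: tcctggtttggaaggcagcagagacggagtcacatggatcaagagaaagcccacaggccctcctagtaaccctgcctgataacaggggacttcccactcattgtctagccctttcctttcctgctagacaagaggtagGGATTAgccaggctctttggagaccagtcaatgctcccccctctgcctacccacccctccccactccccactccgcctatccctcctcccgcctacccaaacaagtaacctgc

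For contrast, these are the peaks with the largest rise in normalized reads and the smallest adjusted p (Itga8), a rise inside a laminin gene (Lamc1) and a rise inside a collagen IV gene (Col4a4). None holds GGATTA. In the third, capitals mark GGAATG, the core read by TEAD factors. Within 100 bases of the midpoint these letters stand in 3 of the 7 peaks called higher and also in 3 of the 14 called lower, beside 11.6% of all peaks.
Itga8, chr2:12190793-12191002: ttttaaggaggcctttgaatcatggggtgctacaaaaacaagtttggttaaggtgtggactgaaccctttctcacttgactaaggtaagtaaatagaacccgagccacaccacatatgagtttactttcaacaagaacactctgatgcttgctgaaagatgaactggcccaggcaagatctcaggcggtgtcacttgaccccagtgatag
Lamc1, chr1:153260012-153260276: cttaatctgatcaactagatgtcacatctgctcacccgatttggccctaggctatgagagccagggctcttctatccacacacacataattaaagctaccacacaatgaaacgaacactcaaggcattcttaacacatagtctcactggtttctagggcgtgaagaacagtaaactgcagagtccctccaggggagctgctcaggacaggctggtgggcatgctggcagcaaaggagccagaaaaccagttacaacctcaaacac
Col4a4, chr1:82555071-82555236: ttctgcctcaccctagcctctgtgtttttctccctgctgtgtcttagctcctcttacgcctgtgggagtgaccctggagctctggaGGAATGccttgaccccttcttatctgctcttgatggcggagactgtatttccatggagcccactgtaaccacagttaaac

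The table gives 1 mean per peak over the 6 libraries, and the reads of each library were recovered from it. Values below are normalized read counts, that is, reads divided by the library's size factor, and a mean carries its SD over 3 libraries. Every log2 fold change, SE and adjusted p below is that of the authors' deposited table unless a centring or filter is named, and folds of means come from the recovered reads. Size factors ran from 0.78 to 1.35 and were larger in every DMSO library (1.09 to 1.35) than in any dTAG13 library (0.78 to 0.961), so that depth and treatment cannot be told apart. The 3 values of a group are listed in order of falling size factor and cannot be tied to replicate numbers. Called peaks were chosen by the difference between these same libraries, so groups that do not overlap at a called peak add no support. Depth at these peaks was low: the median was 8 reads per DMSO library and 6 per dTAG13 library over the 347 member peaks with recovered reads. A floor of 3 reads per library equals 2.42 normalized reads in DMSO and 3.54 in dTAG13, and folds against a group with no read are given against it, for counting error only. Of the 2082 recovered counts 1652 (79.3%) were even, so reads may often come in pairs and are not independent counts. The floor treats them as single reads, while the intervals below count 2 reads as 1 fragment.

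Basement membrane genes carried 10 of the 21 called peaks, 7 lower and 3 higher, among 110 tested peaks (9.09%, beside 5.26% of all tested peaks, 3.79% lower and 1.47% higher). Their median log2 fold change was -0.30, beside -0.16 over all tested peaks. Those described here that fell were near Sparc, Lamc1, Lama4 and Col4a2, and those that rose near Lamc1, Col4a4 and Col18a1.

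Sparc encodes a collagen-binding glycoprotein of basement membranes, and both of its called peaks fell. At chr11:55375100-55375226, between genes and 44735 bases past the Sparc start site on its downstream side, the DMSO libraries had 7.40, 9.16 and 7.34 normalized reads and no dTAG13 library had a read. The groups did not overlap, and the level was at least 2.25-fold lower after dTAG13 (deposited log2 fold change -5.21, SE 1.41, adjusted p = 0.0116). This is the first of the sequences shown, with a single GGATTA, and the start site of Fat2 is nearer to it, at 38599 bases. A stronger Sparc peak 8505 bases away, at chr11:55383440-55383897, had 32.6, 30.5 and 31.2 in DMSO against 16.6, 9.72 and 10.3 after dTAG13. Its mean was 2.57-fold lower (log2 fold change -1.34, SE 0.40, adjusted p = 0.0252), with an adjusted p of 0.0533 after centring on all peaks and 0.0702 after centring by GC content. The other 5 Sparc peaks did not pass the test, with log2 fold changes from -3.20 to 0.73. Among them, the promoter peak had 20.6 ± 1.39 in DMSO and 15.6 ± 3.43 after dTAG13, and these groups overlapped.

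Lamc1 encodes the gamma chain that most laminin trimers share. A pair of Lamc1 peaks 2065 bases apart, both upstream of the start site and between genes, fell together. At chr1:153360639-153360853, 27960 bases upstream, the DMSO libraries had 34.0, 25.2 and 33.0 and the dTAG13 libraries 14.6, 14.6 and 10.3, a 2.34-fold lower mean (log2 fold change -1.22, SE 0.40, adjusted p = 0.0449). At chr1:153358584-153358778, 25895 bases upstream, the values were 13.3, 16.8 and 16.5 against 2.08, 4.86 and 5.13, a 3.86-fold lower mean (log2 fold change -1.98, SE 0.66, adjusted p = 0.0496). Every dTAG13 library lay below every DMSO library at both. Both calls held when peaks of both authors' lists were centred on 0 (adjusted p = 0.0265 and 0.0354), but not under the other centrings: the adjusted p of the first was 0.0873 on all peaks and 0.158 by GC content, and that of the second 0.0723 and 0.293, and 0.0505 when weak peaks were not filtered.

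A further Lamc1 peak moved the other way. At chr1:153260012-153260276, in intron 2 of 27 and 72642 bases downstream of the start site, the DMSO libraries had 3.70, 9.16 and 7.34 and the dTAG13 libraries 18.7, 29.2 and 23.1. All dTAG13 values stood above all DMSO values, with a 3.51-fold higher mean (log2 fold change 1.82, SE 0.49, adjusted p = 0.0118). Between these distant peaks the Lamc1 promoter peak, a strong one with a mean of 78.1, differed by -0.12 on the log2 scale (SE 0.20, adjusted p = 0.782).

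Lama4 encodes a laminin alpha chain best known from blood vessels and mesenchyme. In an intron at chr10:38970051-38970264, 4642 bases downstream of a start site, the DMSO libraries had 16.3, 9.16 and 9.18 normalized reads. Among the dTAG13 libraries, 1 had 2.08 and the others none. Those are 44 against 2 raw reads, a ratio of 15 after size factors, with a 95% counting interval of 2.43 to 621 if 2 reads make 1 fragment (log2 fold change -3.92, SE 1.21, adjusted p = 0.0316). Centring by GC content gave an adjusted p of 0.0758.

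Collagen IV is the basement membrane's own collagen, made from chains encoded by gene pairs that share a promoter region. In intron 4 of 47 of Col4a2, at chr8:11360982-11361100 and 48236 bases downstream of its start, accessibility fell. The DMSO values were 20.7, 9.16 and 23.9 and the dTAG13 values 2.08, 4.86 and 2.57, so the groups did not overlap and the mean was 5.65-fold lower (log2 fold change -2.51, SE 0.71, adjusted p = 0.0163). Under centring by GC content the adjusted p was 0.056. The peak at the start of the neighbouring Col4a1, chr8:11312790-11312973, had 10.4, 6.11 and 12.8 in DMSO and 14.6, 14.6 and 23.1 after dTAG13. Those groups did not overlap either, but the difference of 0.84 on the log2 scale (SE 0.49) did not pass the test (adjusted p = 0.346). None of the 9 Col4a1 peaks was called, and their log2 fold changes ran from -4.40 to 1.05.

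Col4a4, a chain of the collagen IV of mature kidney and eye basement membranes, had a peak that rose. In intron 4 of 47, at chr1:82555071-82555236, the dTAG13 libraries had 12.5, 13.4 and 11.5 while 1 DMSO library had 1.53 and the others none. From 32 raw reads against 2 the ratio was 23.4, with a 95% counting interval by fragments of 3.64 to 982 (log2 fold change 4.56, SE 1.19, adjusted p = 0.00879). Col18a1, whose product carries endostatin at its end, rose at chr10:77111311-77111425, 2337 bases downstream of a start site. There the DMSO libraries had 0, 1.53 and 3.67 and the dTAG13 libraries 19.8, 8.51 and 7.70, a 6.92-fold higher mean of which 1 library gave the most (log2 fold change 2.88, SE 0.88, adjusted p = 0.0289).

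**Figure D1:**
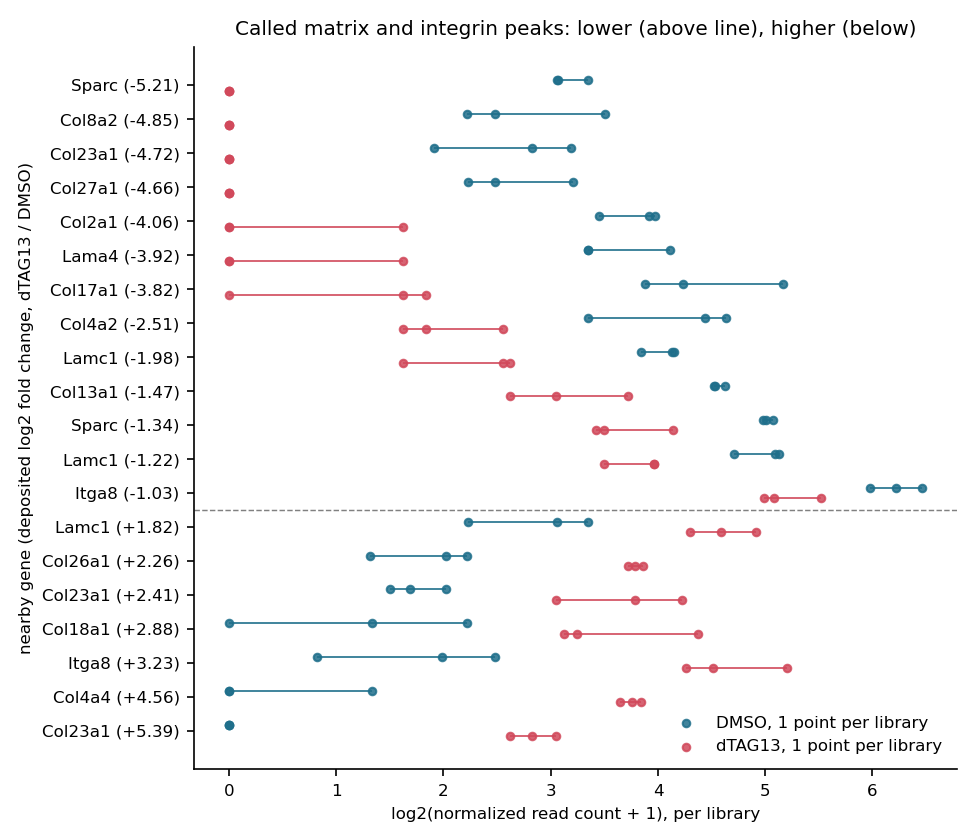
Normalized read counts of the 20 called peaks described here on a log2(count + 1) axis, with 1 point for each of 3 DMSO (blue) and 3 dTAG13 (red) libraries and a line over each group's range. Peaks are ordered by the deposited log2 fold change in brackets, 13 lower ones above the dashed line and 7 higher ones below it, and the groups do not overlap at any of them. The peaks were chosen by the difference between these same libraries, so that separation is no separate support.

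Among the fibrillar collagens, 2 of 39 tested peaks were called (5.13%, beside 5.26% of all tested peaks), both lower. Col2a1 encodes the main collagen of cartilage and notochord. Its called peak, chr15:98012515-98012701, lies between genes 7913 bases upstream of the start. The DMSO libraries had 14.1, 9.92 and 14.7, and after dTAG13 1 library had 2.08 and the others none. From 48 raw reads against 2 the ratio was 16.4, with a 95% counting interval by fragments of 2.67 to 675 (log2 fold change -4.06, SE 1.18, adjusted p = 0.0212). A weaker Col2a1 peak beside it, at chr15:98013005-98013090, had 4.44, 7.63 and 3.67 against no read after dTAG13 and fell just outside the threshold (log2 fold change -4.61, adjusted p = 0.0546). At the Col2a1 start site the peak had 13.2 in DMSO and 11.1 after dTAG13 (log2 fold change -0.23, adjusted p = 0.849). Col27a1, another cartilage collagen, had the second call at chr4:63206428-63206560, 8941 bases upstream of the start. Its DMSO values were 3.70, 4.58 and 8.26 and no dTAG13 library had a read, at least 1.56-fold lower (log2 fold change -4.66, SE 1.54, adjusted p = 0.0481). That call was lost by centring on all peaks (adjusted p = 0.0557) or by GC content (adjusted p = 0.116), and held with centring on peaks of both lists (adjusted p = 0.0408).

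The collagens outside the basement membrane and fibrillar lists had 7 called among 120 tested peaks (5.83%, beside 5.26% of all tested peaks), 4 lower and 3 higher, near 5 genes. Col17a1, a membrane-spanning collagen of hemidesmosomes, fell at chr19:47645667-47645861, past the end of the gene and 46330 bases from its start. The start site of Gm16068 is nearer, at 28658 bases. The DMSO libraries had 17.8, 13.7 and 34.9, the dTAG13 libraries 2.08, 0 and 2.57. The mean was 14.3-fold lower and the groups did not overlap (log2 fold change -3.82, SE 0.86, adjusted p = 0.00172).

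Col13a1, also a membrane-spanning collagen, fell at chr10:61891263-61891513, over exon 13 of 40. There the DMSO libraries lay close together at 22.2, 23.7 and 22, and those after dTAG13 had 7.28, 12.2 and 5.13, a 2.76-fold lower mean. Its log2 difference was -1.47 (SE 0.49). The adjusted p of 0.05, rounded from just below it, was the last inside the threshold, and it was 0.051 without the filter on weak peaks, 0.0845 with centring on all peaks and 0.0853 by GC content. Col8a2, a short-chain collagen of the cornea, fell at chr4:126290041-126290162, in intron 1 of 3 and 3308 bases from the start. Its DMSO values were 10.4, 4.58 and 3.67 and no dTAG13 library had a read, at least 1.75-fold lower (log2 fold change -4.85, SE 1.50, adjusted p = 0.0327).

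Col23a1 encodes a membrane-spanning collagen and had the most peaks of any member gene, 21. It had 1 lower and 2 higher calls within the gene. In intron 2 of 28, at chr11:51458759-51458831, no DMSO library had a read and the dTAG13 libraries had 7.28, 6.08 and 5.13, at least 2.55-fold higher (log2 fold change 5.39, SE 1.50, adjusted p = 0.0150). Over exon 15 of 29, at chr11:51565130-51565310, the values were 2.22, 3.05 and 1.84 against 17.7, 7.29 and 12.8, a 5.32-fold higher mean (log2 fold change 2.41, SE 0.75, adjusted p = 0.0352). Only 3775 bases further, in intron 16 of 28 at chr11:51568945-51569045, the direction turned: the DMSO libraries had 8.14, 6.11 and 2.75 and the dTAG13 libraries no read. This was at least 1.60-fold lower (log2 fold change -4.72, SE 1.53, adjusted p = 0.0437), and the call was lost by centring on all peaks (adjusted p = 0.0514) and by GC content (adjusted p = 0.0648). Col26a1, which encodes a small collagen-like protein, rose in intron 4 of 12 at chr5:136764235-136764501. The DMSO libraries had 1.48, 3.05 and 3.67 and those with dTAG13 13.5, 12.2 and 12.8, a 4.69-fold higher mean (log2 fold change 2.26, SE 0.71, adjusted p = 0.0377). The DMSO values rest on 10 raw reads in all, and the call was lost whichever library was left out.

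**Figure D2:**
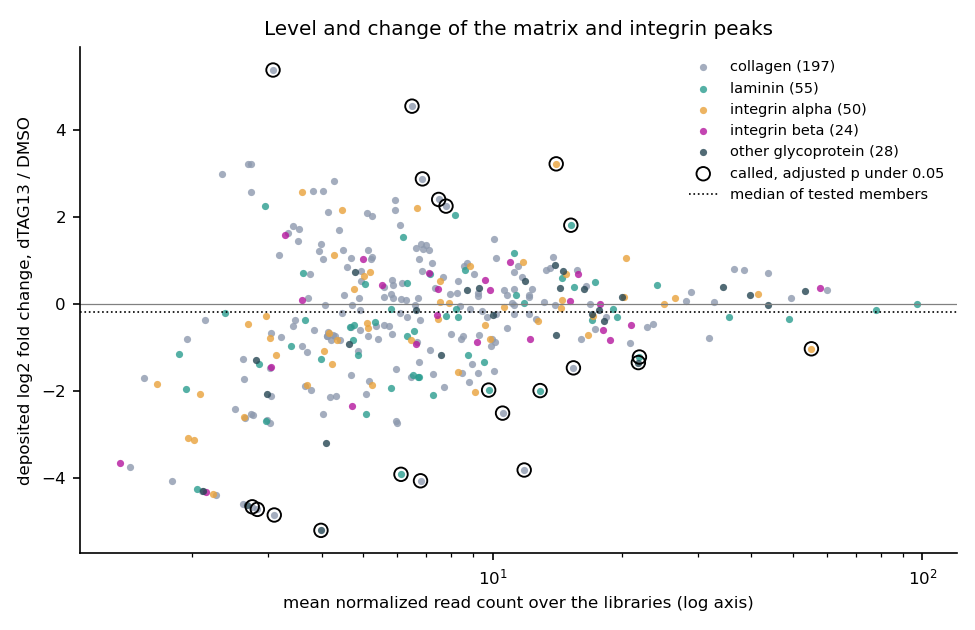
Each point is 1 of the 354 peaks, coloured by gene family, with its mean normalized read count over the 6 libraries on a log axis and the deposited log2 fold change (dTAG13 over DMSO). Circles mark the 21 called peaks, whose means run from 2.76 to 55.2, and the dotted line is the members' median of -0.19.

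Integrin genes had 2 calls among 72 tested peaks (2.78%, beside 5.26% of all tested peaks), both near Itga8. Its product pairs with integrin beta1 and binds the RGD letters of nephronectin and fibronectin. The peaks lie 8399 bases apart inside the gene and moved in opposite directions. At chr2:12190793-12191002, 111025 bases downstream of the start, the DMSO libraries had 2.96, 0.763 and 4.59 and the dTAG13 libraries 21.9, 18.2 and 35.9. The mean was 9.14-fold higher, with the smallest adjusted p of all member peaks (log2 fold change 3.23, SE 0.62, adjusted p = 0.000129). At chr2:12182184-12182813, over a coding exon that the authors' annotation calls a 3' UTR, a strong peak had 87.3, 61.8 and 73.4 in DMSO and 44.7, 32.8 and 30.8 after dTAG13. Its mean was 2.05-fold lower (log2 fold change -1.03, SE 0.25, adjusted p = 0.00511), but with centring by GC content the difference was -0.48 with an adjusted p of 0.274. The Itga8 promoter peak had 25.1 in DMSO and 25 after dTAG13.

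Laminin receptor genes (Itga3, Itga6, Itga7, Itgb4) had 13 tested peaks and no call, and collagen receptor genes (Itga1, Itga2, Itga10, Itga11) 12 and none. The integrin beta genes had 23 and none, with a median log2 fold change of 0.07. Among integrin genes, Itga9, which binds tenascin, had the most alpha peaks, 11, with log2 fold changes from -2.01 to 0.88 and no call. Itgb5, a partner of integrin alpha v, had the most beta peaks, 9, from -2.33 to 0.98 and again without a call. Fn1 and Tnc together had 7 and none. An Fn1 peak in intron 24 of 44, chr1:71615099-71615178, came nearest: 3.70, 6.87 and 5.51 in DMSO against no read after dTAG13 (log2 fold change -4.63, SE 1.54, adjusted p = 0.0507). Fn1 encodes fibronectin, the ligand of several of these receptors. With 5.26% of all tested peaks called, sets of so few peaks may well hold no call. At such depth a missing call does not show that accessibility was equal.

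Promoter peaks, those centred within 1000 bases of an annotated start site, made up 76 of the 354 (21.5%, against 28.9% of all peaks). None of the 75 tested was called, beside 2.08% of all tested promoter peaks. Their median log2 fold change was 0.13. The other 273 tested member peaks held all 21 calls (7.69%, beside 6.58% of all tested peaks away from promoters) and had a median of -0.33, close to the median of -0.34 of all peaks away from promoters. Under the authors' wider annotation, the higher Itga8 peak and the called Col18a1 peak are labelled promoter at 2-3 kb.

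The strongest promoter peaks of the central genes differed by up to 1.79-fold between group means, and none passed the test. At Lama1, which encodes the alpha chain of the early embryo's laminin, the DMSO libraries had 53.3, 55.0 and 56.0 and the dTAG13 libraries 38.5, 52.2 and 38.5. The groups did not overlap, yet the deposited difference was -0.35 on the log2 scale (SE 0.25) and did not pass (adjusted p = 0.464). At Itgb4, the laminin receptor subunit of hemidesmosomes, the values were 24.4, 22.9 and 24.8 against 16.6, 14.6 and 8.98 (log2 fold change -0.83, SE 0.42, adjusted p = 0.25). Itgb1, the beta subunit of most matrix receptors, differed by 0.37 on the log2 scale (SE 0.23, adjusted p = 0.379). Itga5, the fibronectin receptor's alpha subunit, had 8.25 ± 4.31 in DMSO and 4.67 ± 2.40 after dTAG13, with overlapping groups.

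Lamb1, Nid1, Nid2, Agrn, Fn1, Tnc, Itga6, Itgav and Itgb5 had overlapping groups at their promoter peaks as well. Their log2 fold changes ran from -0.30 (Lamb1) to 0.40 (Tnc). For Hspg2, whose reads were not recovered, it was -0.02 (SE 0.26). Col4a2 had no peak of its own at a start site under this rule.

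**Figure D3:**
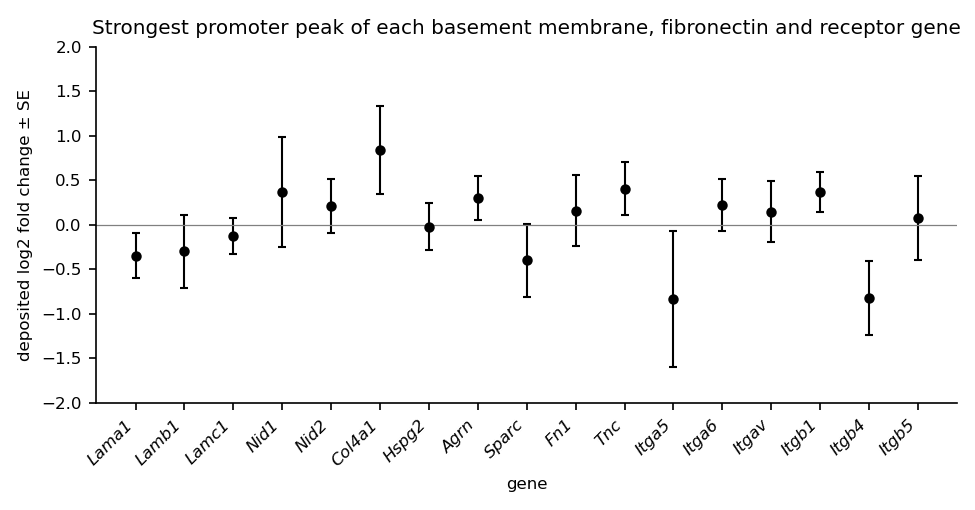
The deposited log2 fold change (dTAG13 over DMSO) with its SE for the strongest promoter peak of 17 basement membrane, fibronectin and integrin genes. The values lie between -0.83 and 0.84, and no adjusted p was under 0.05.

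The letters GGATTA stood within 100 bases of the midpoint, on either strand, in 25 of the 354 peaks (7.06%), against 8.84% of all peaks. The same letters reversed, ATTAGG, were in 4.80% and 7.09%. All 25 were tested, and 4 of them (16.0%) were called, all lower, beside 15% of all tested OTX-letter peaks called lower. Their log2 fold change was negative in 22 of 25, with a median of -1.68, and the median of all peaks with these letters was -1.24. None of the 25 member peaks was called higher, beside only 13 of all 5959 tested peaks with these letters. Of the 25, 19 (76.0%) were in the DMSO list alone and none in the dTAG13 list alone, beside 67.2% and 4.61% of all peaks with these letters.

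Some uncalled peaks with OTX letters had the same direction at low counts. The Sparc peak at chr11:55417523-55417609 had 11.8, 4.58 and 5.51 in DMSO and 0, 0 and 2.57 after dTAG13 (adjusted p = 0.122). An Itgb5 peak at chr16:33840846 had 5.92, 7.63 and 10.1 against 2.08, 0 and 2.57 (log2 fold change -2.33, adjusted p = 0.158). Both were picked after their values were seen. Shares of other letters in the member peaks and in all peaks were as follows: TEAD GGAATG in 13.3% and 11.6%, AGATAA, the letters of GATA factors, in 15% and 15.7%, SOX ACAAAG in 16.1% and 16.4%, FOX TGTTTAC in 5.08% and 5.34%, AP1 TGANTCA in 9.04% and 6.08%, and T-box AGGTGTGA in 1.41% and 1.71%. Such matches describe letters, not bound sites.

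**Figure D4:**
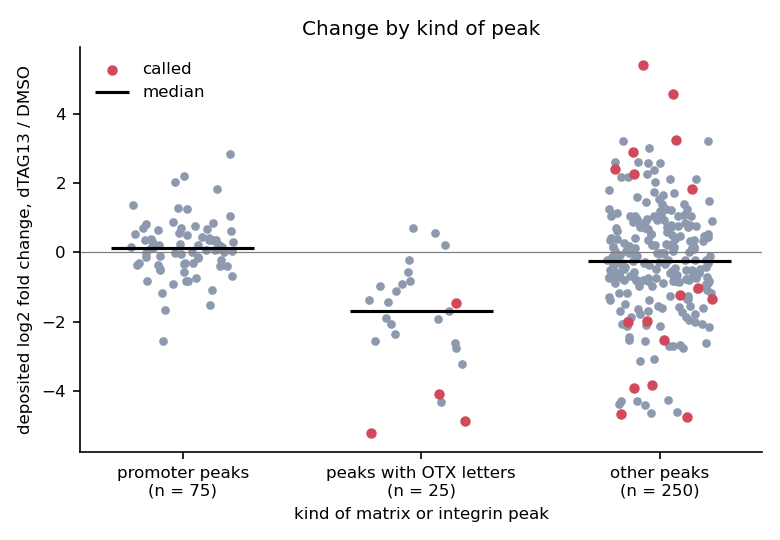
Deposited log2 fold changes of the tested member peaks at promoters (75), with OTX letters (25) and elsewhere without them (250), with called peaks in red and medians as lines. A pair of peaks with the letters are promoter peaks and appear in both columns. The medians are 0.13, -1.68 and -0.23.

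The authors' peak lists for the groups give another view. A member peak lay in the DMSO list alone in 154 cases (43.5%, against 40.1% of all peaks), in both lists in 136 (38.4% against 48.2%) and in the dTAG13 list alone in 64 (18.1% against 11.8%). Laminin peaks were 31, 21 and 3 in that order and collagen peaks 84, 68 and 45. Whether a weak peak enters a list depends on depth, and its part in these shares was not tested. Of the 7 called higher, 6 (85.7%) were in the dTAG13 list alone, beside 57.5% of all peaks called higher. Of the 14 called lower, 11 (78.6%) were in the DMSO list alone, beside 86.9% of all peaks called lower. The lists and the calls come from the same libraries.

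**Figure D5:**
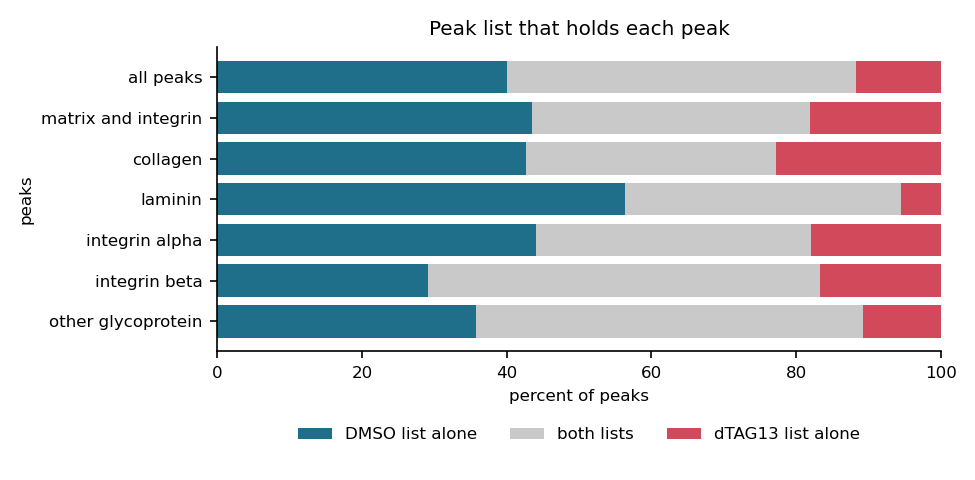
Share of peaks that overlap the DMSO peak list alone, both lists or the dTAG13 list alone, for all 70494 peaks, the 354 member peaks and each gene family. The bar of the laminins has the smallest share in the dTAG13 list alone (5.45%) and that of the collagens the largest (22.8%).

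The table also marks genes as down or up, which its headers do not explain further. Col2a1, Fn1, Itga5, Lamc1 and Sparc carried the down mark. Their 24 peaks held 5 called lower and 1 called higher, and among all tested peaks of genes marked down 9.65% were called lower. Col4a1, Col4a2, Col11a1, Col14a1 and Nid2 carried the up mark, and of their 30 tested peaks 1 was called lower and none higher, beside 2.25% called higher among all tested peaks of genes marked up. The called peak of Col4a2 was lower while its gene carries the up mark. Among all 2089 tested peaks of genes marked up, 57 were called lower and 47 higher.

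Other genes that build, cross-link or sense the matrix were counted from a fixed list of 76, of which 70 had peaks. Of 267 tested peaks 13 were called (4.87%, beside 5.26% of all tested peaks), 10 lower and 3 higher. Frem2, a basement membrane protein of the Fraser complex, rose (log2 fold change 2.41, adjusted p = 0.00188), and its partner Fras1 fell at a peak between genes (-1.64, adjusted p = 0.0128). Ddr1, a collagen-binding receptor kinase, fell (-1.81, adjusted p = 0.00273), as did both called peaks of Egflam, which binds dystroglycan (-5.04 and -2.89). Loxl4, which cross-links collagen, rose by 2.23 on the log2 scale and Fermt1, an integrin activator, by 2.09. The remaining calls were lower, near Adamts9, Adamts1, Mmp24, Fbln2, Fbn2 and Ptk2.

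The labelled cell type was read from promoter peaks of marker genes. A promoter peak was present for 9 of 10 definitive endoderm markers (not Sox17), 1 of 6 visceral and parietal endoderm markers, 4 of 6 mesoderm markers and 4 of 6 epiblast and neural markers. Peaks near these genes were called lower 3 times in the first set (of 53 peaks), 1 time in the second (of 10), 1 time in the third (of 18) and 1 time in the last (of 16), where 2 were called higher. The numbers in brackets are of all peaks, tested or not. Over all tested peaks 3.79% were called lower and 1.47% higher, and with so few peaks per set these counts were not compared with it. Their part in the members' changes was not tested. Open promoters do not measure expression or the share of cells of a type, and fewer cells with an open site and less opening per cell cannot be told apart in these bulk libraries.

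Assigning each peak to the gene with the nearest start site left 238 peaks near matrix and integrin genes. Of these 234 were tested and 10 were called (8 lower, 2 higher), beside 5.26% of all tested peaks. Among the calls that this naming took out were the weaker Sparc peak, the Col17a1 peak and both Itga8 peaks, so no integrin call was left. The called Col23a1, Col26a1 and Col13a1 peaks and the higher Lamc1 peak were taken out as well. Leaving out 1 library at a time could not change the direction of any of the 21 called peaks, because their groups do not overlap. Only 6 of the 21 stayed past the p limit in all 6 cases: both Itga8 peaks, Col17a1, Col4a4, the weaker Sparc peak and the Col23a1 peak in intron 2. The Col26a1 peak and the Lamc1 peak at 25895 bases upstream passed in none.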

How the data were processed

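ATAC-seq of 3 DMSO and 3 dTAG13 libraries was read from the authors' deposited table of 70494 peaks. fastp, Bowtie2, MACS2, featureCounts, HOMER 4.11 and ChIPseeker are named in the submitters' processing notes, with build mm10. The authors' deposited table carries the column names of DESeq2 output, per the file headers. Per the file headers, the table holds 1 normalized mean count (signal) per peak, a log2 fold change with its SE, a test score (Wald statistic), and p-values with adjusted p-values; these were used as deposited. The authors' deposited peak lists (1 per group) gave starts and ends. Reads per library were recovered from the means: a mean is a sum of whole reads times 6 library steps, found from weak peaks (661 of 676 decoded in DMSO, 146 of 173 in dTAG13). Of 354 member peaks 347 had 1 solution that matched the deposited fold change within 1.77e-05, where a close match was a condition for accepting it. In a simulation 196 of 196 peaks were decoded right. They were modelled on decoded peaks and built with the decoder's own formulas, so this checks the search and not the model. Start sites (77198) came from GENCODE M21 basic and sequences from GRCm38. Python 3.11.15, numpy 2.4.6, pandas 2.3.3, scipy 1.17.1 and pysam 0.24.0 were used.

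Peaks described singly are every called member peak except 1 that is not reported here, the strongest promoter peak of 18 central genes (the strongest peak where none lies at a start), the gene with most peaks in each family and the peaks on either side of the threshold. The members, lists and rules were chosen with earlier results of these data known.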

Additional observations from a re-analysis of the deposited data

How the results depend on the processing

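Counts of called member peaks (21, with 14 lower and 7 higher) moved most with the p limit: at an adjusted p under 0.01 they were 4 (2 lower, 2 higher), and under 0.1 they were 34 (22 lower, 12 higher). Counts over all tested peaks at these limits are not given here, so the shift is not shown to be particular to the members. Naming peaks by the nearest start site gave 10 of 234 tested (8 and 2). Centring on the median of all peaks gave 8 lower and 13 higher, and centring within 10 bins of GC content gave 5 lower. Centring on peaks of both lists kept all 21 calls and gave 23. Leaving out 1 library at a time, with each peak's dispersion held and the unadjusted p limit of the main calls (0.00263), gave 10 to 15 calls, 5 to 10 lower and 4 to 6 higher; the calls were 12, 14 and 15 without each DMSO library in turn and 11, 10 and 12 without each dTAG13 library, where fewer samples enter by construction. These runs were added after the data were seen and covered member peaks alone, so no share of all peaks stands beside them. The members' median of -0.19 became 0.026 among peaks with a mean of at least 5 and -0.025 relative to all peaks; the cause was not tested. Peaks in both lists were 32.2% when 50% of both peaks had to overlap. Promoter peaks were 16.9% within 500 bases, 31.9% within 5000 and 36.7% by the authors' annotation, and OTX letters stood within 50 bases in 3.95%. Single calls were lost at 2 peaks with no filter on weak peaks, 6 with centring on all peaks and 9 by GC content. No paired analysis was possible because the recovered reads cannot be matched to the replicate numbers of the labels. Counts are low: in 8 of the 14 lower and 4 of the 7 higher called peaks the weaker group lies under 3 reads per library.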

Other observations

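At a Col17a1 peak with OTX letters that was not called (chr19:47657526), 1 DMSO library had 0.763 normalized reads beside 11.8 and 11.9 in the others. Lama2, the laminin gene with the most peaks (9, of which 8 were tested), had a negative log2 fold change at 7 of the 9, none of them called. None of the 9 is a promoter peak, and 62.0% of all tested peaks away from promoters were negative.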
